A study of Mus musculus with 41 samples.

Results

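The 10 genes described here are the anterior and middle members of the HoxC cluster (Hoxc4, Hoxc5, Hoxc6, Hoxc8 and Hoxc9) and of the HoxD cluster (Hoxd1, Hoxd3, Hoxd4, Hoxd8 and Hoxd9), found by symbol among the 51410 genes of the count tables. They were measured by RNA-seq in R1 mouse embryonic stem cells, wild type (WT) or from Caprin1 knockout (KO) clones 2 and 4, each of which is 1 derived line. CAPRIN1 is an RNA-binding protein of the cytoplasm. All lines spent 4 days with 1 µM retinoic acid in stem cell medium lacking LIF, the cytokine that holds these cells in the pluripotent state, so every library compared here had been exposed to retinoic acid. Afterwards 2 µg/ml α-amanitin, which blocks RNA polymerase II, was given for 0, 2, 4 or 8 h. Each time had 4 WT libraries; clones 2 and 4 had 2 libraries each, except that the 0 h table holds 1 library of clone 4. The labels do not say that replicates came from separate cultures, so p-values measure the spread between these libraries, which may be technical.

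Hox genes encode homeodomain transcription factors that give cells of the embryo their position along the head-to-tail axis. They lie in clusters, and the order of the genes along the chromosome matches the order in which they are switched on: genes at one end respond early to retinoic acid and act towards the head, and genes at the other end come on late and act in the trunk and tail. In pluripotent cells the clusters are held silent by Polycomb repressors, and retinoic acid, acting through nuclear receptors, opens them from the anterior end.

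Total counts per library ran from 3.46 to 31.6 M (mega-counts), with a mean of 18.7 ± 8.74 M at 0 h (SD, n = 7) and means of 7.16 to 8.62 M at the later times. WT libraries stood in pairs at 0 h: the mean chi-square per gene was 2.86 to 3.62 between replicates 1 and 2 and between 3 and 4, against 18.7 to 41.4 for the other pairs, and at 8 h 1.93 to 2.34 against 6.88 to 10.8. These pairs did not stand apart at 2 h (3.49 to 3.97 against 2.21 to 5.03) or at 4 h (3.46 to 6.56 against 1.73 to 14.9). The Caprin1 transcript had 861, 766, 955 and 979 CPM (counts-per-million, scaled by TMM) in WT at 0 h, 107 and 106 CPM in clone 2, and 1076 CPM in the library labelled clone 4 knockout. Its group means stayed between 106 and 193 CPM in clone 2 over all times and between 991 and 1214 CPM in clone 4, against 890 to 1132 CPM in WT. Clone 4 was thus near WT in this transcript, and clone 2 was not. Whether clone 4 lacks the protein cannot be told from RNA levels, and the protein is not in these data. The clones are therefore given apart.

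The sequences just upstream of the starts of Hoxd1, Hoxd8 and Hoxc4 are shown because Hoxd1 was among the members that differed most between the lines at 0 h and Hoxd8 among those that differed least, and because Hoxc4 is the HoxC member held in the RefSeq promoter table (GRCm38.p6; 6 of the 10 members have an entry). Each is 250 bases on the plus strand, ending at the base before the listed transcript start: chr2:74762730-74762979, chr2:74704365-74704614 and chr15:103034145-103034394, the last lying inside the annotated span of the gene. Capitals mark AGGTCA, the half-site that retinoid receptors read, and CCAAT, a general promoter box, on either strand, so the reverse complements TGACCT and ATTGG are capitalised too.
Hoxd1: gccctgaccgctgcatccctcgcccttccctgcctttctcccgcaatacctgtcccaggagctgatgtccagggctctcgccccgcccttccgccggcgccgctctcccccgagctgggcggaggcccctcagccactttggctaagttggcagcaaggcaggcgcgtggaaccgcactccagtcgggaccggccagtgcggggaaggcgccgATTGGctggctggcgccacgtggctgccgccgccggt
Hoxd8: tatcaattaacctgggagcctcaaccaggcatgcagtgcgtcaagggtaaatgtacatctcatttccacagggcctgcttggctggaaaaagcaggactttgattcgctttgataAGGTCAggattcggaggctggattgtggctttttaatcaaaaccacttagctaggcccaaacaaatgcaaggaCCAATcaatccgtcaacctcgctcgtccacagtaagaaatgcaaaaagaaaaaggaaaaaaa
Hoxc4: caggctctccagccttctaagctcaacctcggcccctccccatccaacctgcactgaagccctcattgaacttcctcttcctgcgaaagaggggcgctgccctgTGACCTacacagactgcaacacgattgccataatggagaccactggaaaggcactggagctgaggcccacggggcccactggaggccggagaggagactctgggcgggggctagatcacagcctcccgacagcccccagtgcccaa
The window of Hoxd1 held 71.6% G and C bases and 24 CpG pairs, that of Hoxd8 44.4% and 6, and that of Hoxc4 62.0% and 8; the medians over 32851 windows of this length were 52.4% and 6. AGGTCA was present upstream of Hoxc4, Hoxd3, Hoxd4 and Hoxd8 and not of Hoxd1 or Hoxd9, and in 14.0% of all windows. CCAAT was present upstream of Hoxd1, Hoxd3, Hoxd4 and Hoxd8, and in 33.8% of all windows. A letter match for the joint binding of Hox proteins and their partners (TGATNNAT) was in none of the 6 windows and in 7.68% of all, and one for CDX factors (TTTATNG) was upstream of Hoxd4 and in 9.81% of all. No 2 matches shared a base in the sequences printed.

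In WT cells before α-amanitin the HoxC genes were the more abundant of both groups. Set on one scale for gene length, Hoxc9 stood at 11.3 ± 2.62 CPM per kilobase (SD, n = 4), Hoxc8 at 8.46 ± 0.688, Hoxc5 at 8.30 ± 1.08, Hoxc6 at 5.05 ± 0.661 and Hoxc4 at 4.73 ± 0.139. Next in the order of levels came Hoxd1 at 3.80 ± 0.555 CPM per kilobase, Hoxd9 at 3.28 ± 0.569 and Hoxd8 at 1.68 ± 0.134. Hoxd4, at 0.230 ± 0.0297, and Hoxd3, at 0.0531 ± 0.0174, were near the limit of detection. Library values of neighbours in this order overlapped for Hoxc9 with Hoxc8, Hoxc8 with Hoxc5, Hoxc6 with Hoxc4, Hoxc4 with Hoxd1 and Hoxd1 with Hoxd9; they did not overlap between Hoxc5 and Hoxc6, Hoxd9 and Hoxd8, Hoxd8 and Hoxd4, or Hoxd4 and Hoxd3. Per-length levels rest on the deposited gene lengths, which span 1860 bases for Hoxd1 to 11617 for Hoxd3. For Hoxd8 this length, 4942 bases, is more than the whole annotated span of 3319. The same holds for Hoxc5 (3534 against 3422) and Hoxc8 (4088 against 3737). Without scaling for length Hoxd8 had the higher WT mean, 8.30 CPM, against 7.06 CPM for Hoxd1 and 7.00 CPM for Hoxd9.

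In clone 2 at 0 h, 9 of the 10 genes were lower than in WT, among them Hoxd1 at 12.4% and Hoxc5 at 16.5% of the WT mean, while Hoxd8 was not called. A gene is called where edgeR's quasi-likelihood test gave an FDR (the Benjamini-Hochberg adjusted p over all genes tested) below 0.05. This compares with 45.2% of 17130 genes called in either direction and 22.3% called lower. The median log2 difference was -2.09 over the members and 0.00 over all genes tested. In bulk RNA, fewer cells that express a gene and less of its RNA per cell cannot be told apart.

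Hoxc4 (ENSMUSG00000075394.4, chr15:103018097-103036856), the anterior end of its cluster, had 19.4, 19.8, 18.6 and 19.7 CPM in WT, 4.99 and 4.71 CPM in clone 2 and 10.7 CPM in clone 4. The 3 lines did not overlap, with clone 4 between the others. Against WT this is a log2 difference of -1.99 in clone 2 (SE 0.13, FDR 7.26e-07) and of -0.86 in clone 4 (SE 0.16, FDR 0.00543). Hoxc5 (ENSMUSG00000022485.3, chr15:103014008-103017429), which neighbours it and acts at the base of the neck and upper trunk, had 34.6, 29.4, 27.4 and 25.9 CPM in WT, 5.22 and 4.44 CPM in clone 2 and 14.9 CPM in clone 4. Again the lines fell in the same order without overlap. The difference was -2.56 in clone 2 (SE 0.16, FDR 5.02e-07) and -0.95 in clone 4 (SE 0.19, FDR 0.0071).

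At the members further along the cluster clone 4 was not called. Hoxc6 (ENSMUSG00000001661.5, chr15:102998226-103011882), a regulator of thoracic identity, had 16.8, 16.9, 12.9 and 14.2 CPM in WT, 5.31 and 5.42 CPM in clone 2 and 17.4 CPM in clone 4. Clone 2 was below every WT library and clone 4 just above them all. Hoxc8 (ENSMUSG00000001657.7, chr15:102990539-102994275), which patterns the thoracic skeleton and its motor neurons, had 38.1, 31.7, 35.4 and 33.1 CPM in WT, 8.22 and 8.51 CPM in clone 2 and 36.2 CPM in clone 4. Here clone 4 lay within the WT libraries. Hoxc9 (ENSMUSG00000036139.6, chr15:102977032-102984444), which sets the thoracic motor neuron columns, had 45.0, 33.7, 28.8 and 28.0 CPM in WT, 6.42 and 7.42 CPM in clone 2 and 25.6 CPM in clone 4. Clone 4 was a little under the lowest WT library. In clone 2 the log2 differences of Hoxc6, Hoxc8 and Hoxc9 were -1.48, -2.03 and -2.26 (edgeR FDR 2.63e-05, 4.42e-07 and 5.72e-06), and in clone 4 they were 0.21, 0.08 and -0.36 (FDR 0.449, 0.731 and 0.298).

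In the HoxD cluster the members towards the anterior end were low in clone 2 and Hoxd8 was not. Hoxd1 (ENSMUSG00000042448.5, chr2:74762980-74765142), an early responder to retinoic acid, had 8.53, 6.21, 7.01 and 6.50 CPM in WT, 0.783 and 0.975 CPM in clone 2 and 3.97 CPM in clone 4. The lines did not overlap and clone 4 lay between. The difference from WT was -2.98 in clone 2 (SE 0.22, FDR 1.47e-06), and -0.78 in clone 4 (SE 0.23, FDR 0.0407). Hoxd8 (ENSMUSG00000027102.4, chr2:74704615-74707933), a middle gene of the cluster, had 8.29, 7.53, 9.15 and 8.21 CPM in WT, 8.90 and 7.96 CPM in clone 2 and 9.71 CPM in clone 4. The clone 2 values lay among those of WT and clone 4 just above them. The difference was 0.03 in clone 2 (SE 0.14, FDR 0.867) and 0.23 in clone 4 (SE 0.18, FDR 0.403).

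Hoxd9 (ENSMUSG00000043342.9, chr2:74697763-74700208), which acts in the lower trunk and the limb, had 7.82, 7.04, 7.86 and 5.26 CPM in WT, 4.40 and 4.60 CPM in clone 2 and 6.20 CPM in clone 4. Clone 2 was lower than each WT library by a small margin, with a difference of -0.62 (SE 0.18, FDR 0.0177), and this call was lost without either clone 2 library (FDR 0.14 and 0.0966). In clone 4 the difference was -0.16 (FDR 0.663). Hoxd4 (ENSMUSG00000101174.8, chr2:74721978-74729160), a hindbrain and neck gene with a well-known retinoic acid response, had 6 to 27 counts per WT library, 11 and 2 in clone 2 and 13 in clone 4, which are 1.09 to 1.42, 0.359 and 0.108, and 0.661 CPM. Its difference in clone 2 was -2.14 (SE 0.40, FDR 0.00128) and in clone 4 -0.83 (FDR 0.235). Hoxd3 (ENSMUSG00000079277.9, chr2:74711993-74748271), which patterns the upper neck, had 2, 10, 20 and 10 counts in WT, 2 and 0 in clone 2 and 8 in clone 4. Its level in clone 2 over that in WT, from 2 against 42 summed counts, was 0.0641 with an exact 95% interval of 0.00751 to 0.246, which covers counting error only; edgeR called it lower (FDR 0.00165). The annotated spans of Hoxd3 and Hoxd4 overlap, and how the authors' counting treated shared bases is not given in the sources used here.

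**Figure D1:**
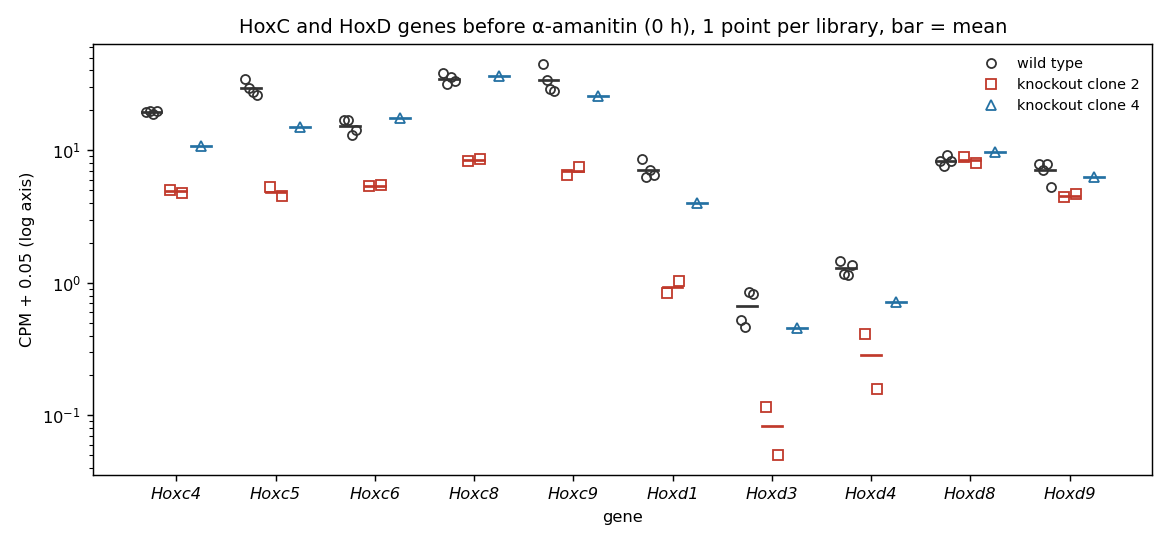
Levels of the 10 genes at 0 h as CPM plus 0.05 on a log axis, 1 point per library (circles WT, squares clone 2, triangles clone 4), with a bar at each mean. Clone 2 sits below every WT library for all genes except Hoxd8, and clone 4 lies between clone 2 and WT for Hoxc4, Hoxc5 and Hoxd1. The share of all genes with such separation was not computed. By edgeR, 22.3% of all genes tested were called lower in clone 2.

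Clone 4 at 0 h had 3 of 10 genes called lower than WT (Hoxc4, Hoxc5 and Hoxd1) and none higher, against 15.9% of genes called in either direction and 6.6% called lower. It rests on 1 library, whose spread was taken from the other groups, and it shares the 4 WT libraries with the clone 2 comparison. The Hoxd1 call was lost without WT replicate 1 (FDR 0.0508), without WT replicate 3 (FDR 0.0664) and with DESeq2 (adjusted p 0.0714). Tested against each other, the clones differed at 7 of the 10 genes, all higher in clone 4, against 23.9% of genes called and 13.4% called higher in clone 4. The log2 differences were 1.13 for Hoxc4, 1.61 for Hoxc5, 1.69 for Hoxc6, 2.11 for Hoxc8, 1.89 for Hoxc9 and 2.19 for Hoxd1. The other of the 7 was Hoxd3, with 8 against 2 counts and a ratio of 9.99 (exact 95% interval 1.99 to 96.6), whose call was lost without either clone 2 library. Hoxd4, Hoxd8 and Hoxd9 were not called between the clones (differences 1.32, 0.20 and 0.46, FDR 0.134, 0.508 and 0.216).

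With both clones pooled as knockout, as the design implies, 4 of the 9 genes tested were called lower (Hoxc4 -1.52, Hoxc5 -1.84, Hoxd1 -1.89 and Hoxd4 -1.65), against 26.1% of genes called and 12.2% called lower; Hoxd3 did not pass the filter on low counts. Without the clone 4 library 9 members were called, and without any other single library 2. Calls over all genes moved too, from 4092 to 7582 without the clone 4 library and to 1734 without clone 2 replicate 2.

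The differences were also set in cluster order, with no test of a trend along it. Over all genes tested, 45.2% were called in clone 2 (22.3% lower) and 15.9% in clone 4 (6.6% lower). The 8 posterior genes that are not members (Hoxc10 to Hoxc13 and Hoxd10 to Hoxd13), which act in the tail and the outer limb, had 2 called lower and 1 higher in clone 2: Hoxc10 at -0.83 (FDR 0.0119), Hoxc13 at -1.09 (FDR 0.000204) and Hoxd13 at 0.53 (FDR 0.0179). In clone 4, 4 of the 8 were called higher: Hoxc10 at 0.83 (FDR 0.0493), Hoxd10 at 1.43 (FDR 0.0186), Hoxd12 at 2.20 (FDR 0.0241) and Hoxd13 at 1.27 (FDR 0.00135). Their median difference was -0.43 in clone 2 and 1.05 in clone 4, against -2.09 and -0.50 over the members. Haglr, the long non-coding RNA beside Hoxd1 and named here after its values were seen, had 2.68 ± 0.354 CPM in WT (SD, n = 4) and a mean of 0.260 CPM in clone 2, a log2 difference of -3.40 (SE 0.32, FDR 9.44e-06).

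**Figure D2:**
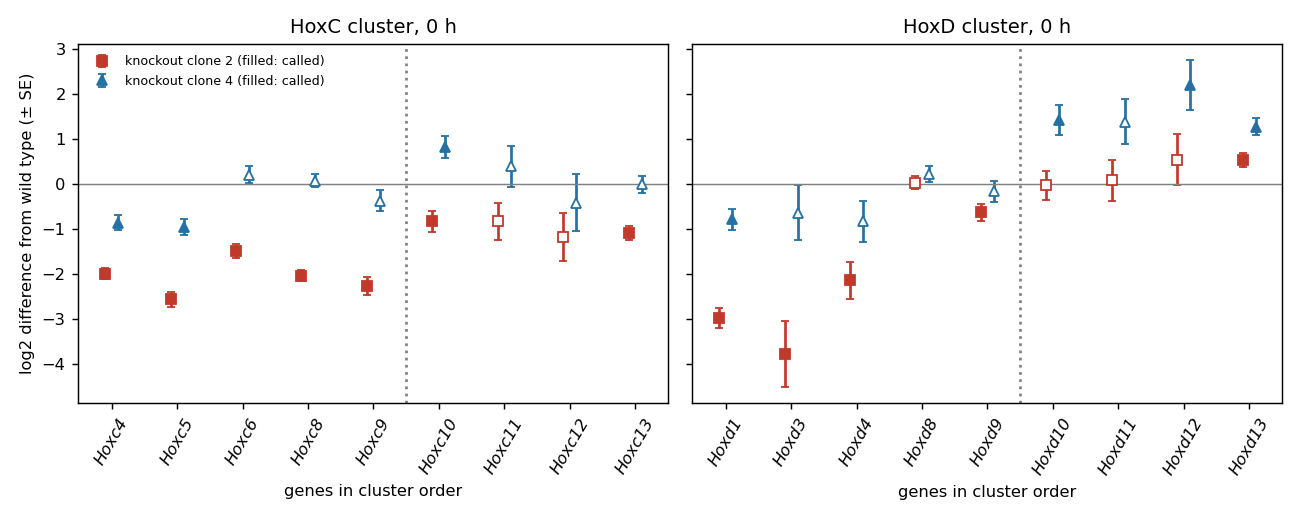
Log2 difference from WT at 0 h (points, with SE bars) for clone 2 (squares) and clone 4 (triangles), genes in cluster order from anterior to posterior, filled where called by edgeR; genes right of the dotted line are not members. In the HoxD cluster clone 2 is at -2.98, -3.77 and -2.14 at Hoxd1, Hoxd3 and Hoxd4, at 0.03 at Hoxd8, at -0.62 at Hoxd9 and at 0.53 at Hoxd13, and in both clusters clone 4 sits above clone 2 at each gene.

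The same contrast was set beside other Hox genes and their regulators. Again, the shares over all genes were 45.2% called in clone 2 (22.3% lower) and 15.9% in clone 4 (6.6% lower). Of the HoxA cluster 9 of 11 genes were lower in clone 2 and none higher (median -0.92, Hoxa9 at -1.79 and Hoxa4 at -1.54), and of the HoxB cluster 10 of 10 (median -1.04, Hoxb9 at -1.91 and Hoxb5 at -1.65). In clone 4 the counts were 1 lower and 2 higher of 11, and 2 lower of 10. The Hox partners, transcription factors that bind DNA with Hox proteins or switch Hox genes on, had 8 of 11 lower in clone 2 and none higher, among them Pknox2 at -2.27, and 4 of 11 lower in clone 4. Non-coding RNAs of the Hox clusters had 5 of 7 lower in clone 2 and 3 of 7 in clone 4, with none higher.

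Genes of the retinoic acid response had 10 of 17 lower and 4 higher in clone 2, against 45.2% of all genes called and 22.3% lower. Nr2f1, a nuclear receptor induced by retinoic acid, was at -3.48, while Cyp26a1 and Cyp26c1, enzymes that degrade retinoic acid, were higher at 1.32 and 0.61. In clone 4, 4 of the 17 were lower and none higher, against 15.9% of all genes called and 6.6% lower. Nr2f1 was at -1.10 in clone 4. Polycomb and Trithorax genes, which keep Hox clusters silent or active, had 7 of 19 lower and 2 higher in clone 2. Taken in either direction, these calls were near the 45.2% of all genes called. Kmt2a, a Trithorax methyltransferase, was at -0.74 and Cbx2 at -0.74, and Bmi1 was at 0.58 and Cbx8 at 0.46. In clone 4, 1 of the 19 was lower and 1 higher (Bmi1 at 0.68), against 15.9% of all genes called.

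The levels of cell type markers at 0 h were set beside these differences. Over all genes tested, 45.2% were called in clone 2 (22.3% lower) and 15.9% in clone 4 (6.6% lower), the rest of each share being higher. Neuroectoderm markers had 5 of 6 lower and 1 higher in clone 2 (Sox11 at -2.36 and Nes at -2.22), and the summed level of the list was 368 to 422 CPM in WT, 85.7 to 88.6 CPM in clone 2 and 344 CPM in clone 4. Endoderm markers were all higher in each clone (7 of 7; Thbd at 2.62 and Sox7 at 1.98 in clone 2), and pluripotency markers had 4 of 6 higher and 1 lower in clone 2 (Klf4 at 1.64, Esrrb at -0.41) and 1 of 6 higher in clone 4. Fibroblast markers, listed because R1 cells are often kept on feeder layers, had 8 of 12 higher and 2 lower in clone 2 (Thy1 at 1.57, Fbln2 at 1.55, Col3a1 at -2.35, Col1a1 at -0.59) and 10 of 12 higher in clone 4 (Fbln2 at 3.33); their summed level was 989 to 1521 CPM in WT, 982 to 986 CPM in clone 2 and 3272 CPM in clone 4, with none of the 12 at 0 in any line. Mesoderm markers had 1 of 4 higher in clone 2 and none called in clone 4. The part of these cell types in the Hox levels was not tested.

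Over 8 h of α-amanitin, 8 of the 9 members tested fell in WT, all but Hoxd8, against 51.1% of 15850 genes called and 25.4% called lower. With transcription blocked, a transcript that is lost faster than the rest of the RNA falls in CPM and one lost more slowly rises, so each change is relative to the other transcripts. The 4 times are 4 separate tables, and a difference between tables in their handling cannot be told apart from time. Hoxd3 did not pass the filter on low counts in this fit.

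Hoxc5 was lost furthest. Its WT libraries held 17.9, 16.8, 16.2 and 14.8 CPM at 2 h, 12.7, 12.3, 10.9 and 13.4 CPM at 4 h, and 5.73, 5.78, 5.76 and 4.90 CPM at 8 h. The times did not overlap, and the mean at 8 h was 18.9% of that at 0 h. The log2 change over 8 h was -2.38 (SE 0.12, FDR 5.55e-18), of which -1.57 (FDR 4.88e-12) fell between 2 and 8 h. Hoxc4 held 6.27, 7.43, 8.01 and 4.84 CPM at 2 h, 3.04, 3.91, 4.58 and 3.71 CPM at 4 h, and 4.39, 4.90, 3.76 and 5.22 CPM at 8 h. Most of its loss was thus in the first table interval: the change was -1.55 over 2 h (FDR 3.21e-12) and -2.08 over 8 h (SE 0.13, FDR 3.88e-15).

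Hoxc6 and Hoxc9 fell over the first 2 h and were not called between 2 and 8 h. Hoxc6 had 6.87 to 8.16 CPM at 2 h, 3.96 to 5.58 CPM at 4 h and 7.94 to 8.89 CPM at 8 h, and Hoxc9 had 13.5 to 17.4, 11.6 to 14.0 and 13.8 to 16.7 CPM. The Hoxc6 values at 8 h were above all those at 4 h. Changes over 8 h were -0.84 and -1.08 (FDR 4.94e-07 and 1.2e-09), and between 2 and 8 h 0.18 and 0.01 (FDR 0.34 and 0.971). Hoxc8 fell by 0.74 over 2 h and by 1.25 over 8 h on the log2 scale (FDR 3.96e-08 and 2.34e-13), to a mean of 41.4% of its level at 0 h.

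Among HoxD genes Hoxd1 fell from a mean of 7.06 CPM to 2.26, 2.01, 1.50 and 2.29 CPM at 8 h, a change of -1.75 (SE 0.18, FDR 3.96e-10). All 8 h values were below all those at 0 h. Hoxd8 stood at 6.12, 6.79, 6.89 and 8.60 CPM at 8 h, which overlaps its values at 0 h, with a change of -0.22 (SE 0.15, FDR 0.23). Hoxd9 changed by -0.57 (FDR 0.00871) and Hoxd4 by -1.16 (FDR 0.00494), the latter from 3 to 7 counts per library at 8 h. Over 2 h alone 8 of 9 members were lower in WT, against 27.7% of genes called and 13.7% called lower; between 2 and 8 h, 4 were (Hoxc4, Hoxc5, Hoxc8 and Hoxd1), against 42.5% and 21.3%. The Hoxd8 change over 2 h (-0.48, FDR 0.0233) lost its call without WT replicate 3 at 0 h or WT replicate 1, 2 or 4 at 2 h, and that of Hoxd9 (-0.68, FDR 0.00677) without WT replicate 4 at 2 h, its lowest library at 1.93 CPM.

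**Figure D3:**
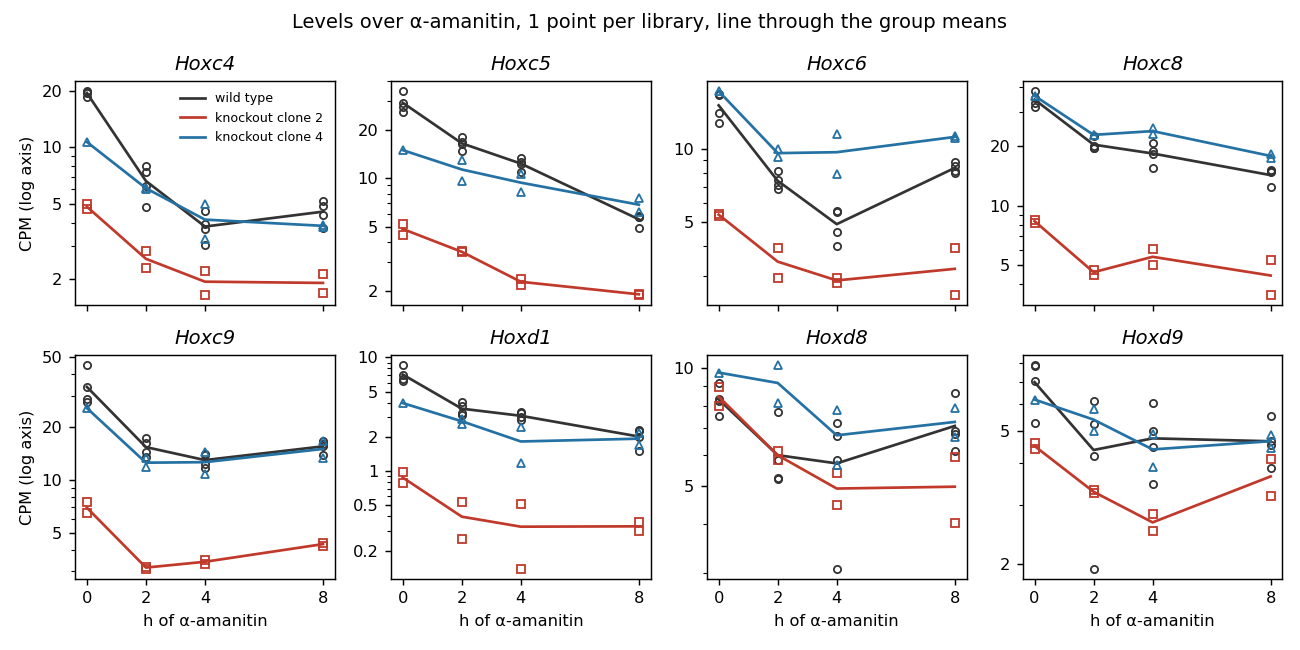
CPM on a log axis against h of α-amanitin for the 8 members with enough counts, 1 point per library, with lines through the means of WT (black circles), clone 2 (red squares) and clone 4 (blue triangles). WT Hoxc5 falls through all times to 18.9% of its 0 h mean, Hoxc6 and Hoxc9 differ by 0.18 and 0.01 on the log2 scale between 2 and 8 h, and Hoxd8 is at 85.6% at 8 h.

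In clone 2, 7 of 9 members fell over 8 h, against 28.4% of genes called and 15.8% called lower: the HoxC genes changed by -1.35 (Hoxc4), -1.36 (Hoxc5), -0.76 (Hoxc6), -0.89 (Hoxc8) and -0.68 (Hoxc9), and Hoxd1 and Hoxd8 by -1.37 and -0.75. The Hoxd1 call (FDR 0.0466) was lost with RLE scaling (FDR 0.0512), without the low-count filter (0.104), with DESeq2 (0.113) and without any of the 4 clone 2 libraries at 0 and 8 h, and leaving out clone 2 replicate 1 or 2 at 8 h left 4 of the 7 genes called. In clone 4, 6 of 9 fell, against 19.5% and 10.9%: -1.47, -1.12, -0.63, -1.01 and -0.78 for the HoxC genes in the same order, and -1.04 for Hoxd1. Without clone 4 replicate 1 at 8 h, 3 of them were called. Between 2 and 8 h Hoxc5 alone was called in clone 2 (-0.87, FDR 0.023, lost without any of its 4 libraries), against 25.8% of genes called and 13.2% called lower, and Hoxc4 and Hoxc5 in clone 4 (-0.66 and -0.72, FDR 0.0414 and 0.00442), against 20.4% and 11.3%; the call of Hoxc4 was lost without any of the 4 clone 4 libraries, and that of Hoxc5 without replicate 2 at 2 h or at 8 h. Over 2 h, 3 of 9 members fell in clone 2 (Hoxc4, Hoxc8 and Hoxc9), against 11.8% of genes called and 5.81% called lower, and 4 in clone 4 (those and Hoxc6), against 6.32% and 2.75%; without clone 4 replicate 1 at 2 h, 2 were left.

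The loss of Hoxc5 differed between the lines. Clone 2 held 5.22 and 4.44 CPM at 0 h and 1.89 and 1.91 CPM at 8 h, and its mean at 8 h was 39.3% of that at 0 h. Clone 4 went from 14.9 CPM, in its 1 library at 0 h, to 7.50 and 6.17 CPM, which is 45.9%, against 18.9% in WT. That starting level has no replicate, and no fit could leave its library out. At 8 h clone 4 thus lay above every WT library, where at 0 h it lay below every one. The difference in the log2 change over 8 h was 1.02 for clone 2 minus WT (SE 0.29, FDR 0.0242) and 1.26 for clone 4 minus WT (SE 0.23, FDR 0.00181), with the same WT libraries in both. No other member was called in either test, where 7.42% and 4.09% of genes were called and 3% and 1.81% in the positive direction.

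The Hoxc5 difference for clone 2 lost its call without clone 2 replicate 2 at 0 h (FDR 0.0839), replicate 1 at 8 h (0.155) or replicate 2 at 8 h (0.171), and kept its sign in all 12 such fits. Taken from 2 to 8 h, without the 0 h table, the difference was 0.70 for clone 2 (FDR 0.225; 6.23% of genes called) and 0.85 for clone 4 (FDR 0.0435; 1.68% called, 0.997% in the positive direction), the latter lost in 10 of 12 fits that left out a library. Hoxc4, the neighbour, had differences over 8 h of 0.72 and 0.60 that missed the threshold (FDR 0.137 and 0.179).

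**Figure D4:**
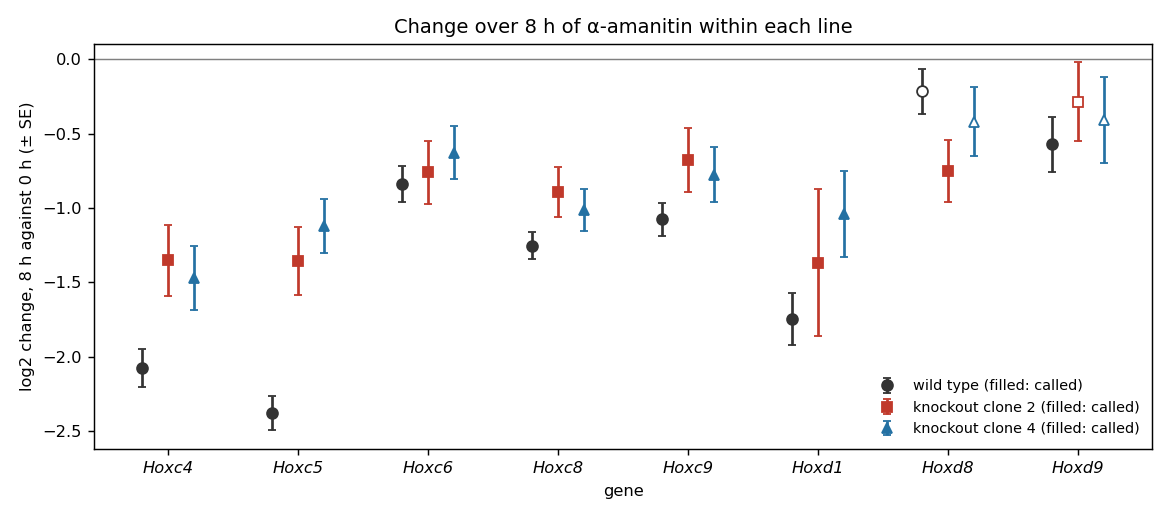
Log2 change from 0 to 8 h of α-amanitin (points, with SE bars) for 8 members in WT (circles), clone 2 (squares) and clone 4 (triangles), filled where called by edgeR. For Hoxc5 the WT change of -2.38 lies apart from -1.36 in clone 2 and -1.12 in clone 4; for Hoxc6 and Hoxd9 the 3 lines lie close together.

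Under α-amanitin clone 2 remained low. At 2 h, 6 of the 8 members tested were lower than in WT (Hoxc4, Hoxc5, Hoxc6, Hoxc8, Hoxc9 and Hoxd1), against 61.8% of genes called and 30% called lower. At 8 h 7 of 8 were lower, against 63.6% and 31.8%: the same genes and Hoxd8, at -0.50 (SE 0.19, FDR 0.0199), a call lost without clone 2 replicate 1 or WT replicate 4 at 8 h and with DESeq2 (adjusted p 0.0832). Hoxc8 and Hoxc9 had the lowest FDR at 8 h, with 3.55 and 5.32 CPM and 4.37 and 4.21 CPM in clone 2, against 12.4 to 15.1 and 13.8 to 16.7 CPM in WT. Hoxd1, with 3 counts in each clone 2 library, was at -2.57 (FDR 9.49e-06).

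In clone 4 the genes that were low at 0 h were no longer called at 8 h. At 2 h Hoxc5 was lower (-0.54, FDR 0.00223) and Hoxd8 higher (0.61, FDR 0.0074), against 41.3% of genes called, 19.6% lower and 21.7% higher; the Hoxc5 call was lost without clone 4 replicate 1, and that of Hoxd8 without clone 4 replicate 2 and with DESeq2. At 8 h Hoxc6 was higher at 11.2 and 11.3 CPM against 7.94 to 8.89 CPM in WT (0.45, FDR 0.0107), and Hoxc8 at 17.5 and 18.3 CPM against 12.4 to 15.1 CPM (0.35, FDR 0.0179), against 37.5% of genes called and 20.4% called higher. Both were lost without either clone 4 library and with DESeq2, and that of Hoxc8 also without WT replicate 3. Against clone 2, 7 of 8 members were higher in clone 4 both at 2 h (48.7% of genes called, 25% higher) and at 8 h (58.4% and 30%), all but Hoxd9. Of these, the Hoxd8 call was lost with DESeq2 at 2 h (adjusted p 0.0958) and at 8 h (0.0991). Without the low-count filter it was also lost at 8 h (edgeR FDR 0.0548). Its difference of 0.60 at 2 h was 0.44 without clone 4 replicate 2, and that of 0.54 at 8 h was 0.31 without clone 2 replicate 1.

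By the summed level of the 5 HoxC members, WT libraries went from 121 to 154 CPM at 0 h to 47.0 to 50.2 CPM at 8 h, clone 2 from 30.2 and 30.5 CPM to 15.8 and 15.6 CPM, and clone 4 from 105 CPM to 53.3 and 56.3 CPM. For the HoxD members WT went from 22.1 to 26.5 CPM to 13.0 to 17.5 CPM, clone 2 from 14.5 and 13.7 CPM to 7.68 and 10.4 CPM, and clone 4 from 20.9 CPM to 14.1 and 15.3 CPM. Over the 12 means of line and time, and among 10970 genes outside the Hox clusters, the log2 levels most like the HoxC sum were those of Zfhx2 (Pearson r = 0.982), Lrrc75a (r = 0.976) and Prrx2 (r = 0.967), and those most like the HoxD sum were Pml (r = 0.97), Sept10 (r = 0.96) and Usp44 (r = 0.959). These are descriptions over points that share libraries, depth and scaling.

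The authors' RIP-seq lists, which name transcripts from CAPRIN1 immunoprecipitation compared between conditions but carry no values or direction, held none of the 10 members. The lists have 2170 and 2502 symbols, beside 51410 genes in the count tables. At that share few or none of 10 genes would be listed, so this count is not a result about the members. Of 39 Hox genes, 1 was listed, Hoxd13, in both.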

How the data were processed

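RNA-seq libraries were made with a stranded mRNA kit and RIP-seq libraries with a 3′ kit, per the labels' protocols. The submitters' processing notes list Cuffdiff, Cufflinks, DESeq2, FastQC 0.11.9, STAR 2.4.0.1 and TopHat, with the build GRCm38. How reads were counted (program, strand option, gene annotation) is not given in the sources used here. The authors deposited raw counts per gene in 4 tables, 1 per time, with gene lengths in bases as another column, and the RIP-seq results as lists of gene symbols, which are values of another kind. Of 51520 lines 110 repeated a gene and were dropped. Of 32 labelled RNA-seq samples 31 have a column; clone 4 replicate 1 at 0 h was not analysed here.

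Counts were tested with edgeR 4.0.16 in R 4.3.3 (robust quasi-likelihood F test after filterByExpr and TMM, with Benjamini-Hochberg adjustment over all genes tested). Lines were compared within a table as 3 groups; changes over time came from a joint fit of 12 groups with 19 residual degrees of freedom, and 4 h values are given without a test. CPM are TMM-scaled. The scripts were tested on simulated data.

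The members and the 12 gene lists (the Hox clusters and their non-coding RNAs, Hox partners, retinoic acid response, Polycomb and Trithorax, and 5 sets of cell type markers) were chosen with earlier results of these data known. Named from each list were up to 2 genes with the largest rise and 2 with the largest fall among called genes at a mean of at least 5 CPM for clone 2 against WT at 0 h; 2 genes that this rule names are not reported here; likeness used log2(CPM + 0.5) and named the 3 closest genes. Hoxd10 and Hoxd12, outside that rule, are named as the members of a small count. The alternatives were RLE scaling, no filter, DESeq2 1.42.0, the replicate block, other sets of libraries in the fit, and leaving out each library. The contrast between clones and the difference from 2 to 8 h were added after the data were seen. The replicate numbers were checked for pairing between groups (see the closing section).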

Additional observations from a re-analysis of the deposited data

Results flagged for a closer look

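Hoxc5 lost less of its level over 8 h of α-amanitin in both clones than in WT, by a test of the difference itself. This difference was 1.02 on the log2 scale for clone 2 minus WT and 1.26 for clone 4 minus WT. The clone 2 call was lost in some fits that left out 1 library. The clone 4 value rests on 1 library at 0 h, which no fit could leave out. From 2 to 8 h the difference was 0.85 for clone 4, a call lost in most such fits. For clone 2 it was 0.70 and not called (edgeR FDR 0.225). The clones share the WT libraries in these tests, and Hoxc5 began at different levels, 29.3 CPM in WT, 4.83 CPM in clone 2 and 14.9 CPM in clone 4; the part of the starting level in the difference was not tested.

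Between the clones at 0 h the levels of 7 of the 10 genes differed, all higher in clone 4, which has 1 library there. Over all genes tested, 23.9% were called and 13.4% called higher in clone 4. Log2 differences were 1.13 for Hoxc4, 1.61 for Hoxc5, 1.69 for Hoxc6, 2.11 for Hoxc8, 1.89 for Hoxc9, 2.19 for Hoxd1 and 3.13 for Hoxd3. The last came from 8 against 2 counts. Its call was lost without either clone 2 library, and DESeq2 gave it no adjusted p. The Caprin1 transcript differed between the same libraries, at 106 and 107 CPM in clone 2 and 1076 CPM in clone 4, and so did the summed fibroblast markers, at 982 to 986 and 3272 CPM; their part was not tested.

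Of 40 sets of 4 WT libraries, 3 had 1 library far from the others by Dixon's criterion: Hoxc5 at 8 h (4.9 CPM), Hoxc8 at 2 h (22.6 CPM) and Hoxc8 at 8 h (12.4 CPM). Chance flags about 1 in 20 such sets.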

How the results depend on the processing

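Clone 2 against WT at 0 h kept 9 members called under RLE scaling, without the low-count filter, with DESeq2 and with the replicate block. RLE scaling shifted a library by at most 0.03 (log2) from TMM. Of the single-gene results, DESeq2 lost 10 calls and gained 1, and pooling the clones lost 14 of 22. Members called fell from 2 to 1 for clone 4 at 2 h and to 0 at 8 h with DESeq2. Without the filter, 1 member was called in clone 4 between 2 and 8 h, also with DESeq2 and with the block. Hoxd9 in clone 4 at 8 h turned to -0.00182 without the filter.

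The replicate numbers gave no steady pairing of the libraries: same-numbered deviations correlated at -0.0972 to 0.329 over 30 pairs, 8 of them over 0.1. In groups of 2 libraries both replicates give the same r, so these pairs are not all separate values. WT replicates 1 and 3 at 0 h were closest to their own number at 2 h (r = 0.299 and 0.329). Replicates 2 and 4 were not (r = -0.0241 and -0.0425). Clone 2 had r of 0.0814 to 0.189 between its times. With the replicate block the calls over all genes moved to 7520 from 2719 for clone 4 against WT at 0 h, to 6727 from 4093 between the clones and to 0 from 4092 for pooled KO, whose members went from 4 to 0; 1 member was called for clone 4 at 8 h (Hoxc8 lost, edgeR FDR 0.103), Hoxd8 in clone 2 at 8 h lost its call (FDR 0.149), Hoxc9 in clone 4 at 0 h (-0.49, FDR 0.00242) and Hoxd9 between the clones at 2 h (FDR 0.0256) gained one, and Hoxd3 in clone 4 at 0 h turned to 0.0557.

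Fitting only the lines compared gave 3586 genes and 5 members for clone 2 over 2 h, 2576 and 4937 genes for clone 4 over 2 and 8 h, 242 for its difference over 8 h, and 117 genes and 0 members for that from 2 to 8 h. With the clones pooled, which puts their spread into the error, WT had 1722 genes and 1 member called over 2 h, 4442 and 4 over 8 h, and 3559 and 1 from 2 to 8 h.

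When each library was left out in turn, calls over all genes ran from 4869 (without clone 2 replicate 1) to 7864 for clone 2 at 0 h, 2146 to 2454 between the clones and 1734 to 7582 for pooled KO (members 2 to 9). Over time they ran from 946 to 1098 (clone 2, 2 h), 2777 to 3174 (clone 2, 8 h; members 4 to 5), 2592 to 2849 (clone 2, 2 to 8 h; members 0 to 0), 459 to 526 (clone 4, 2 h; members 2 to 3), 1971 to 2057 (clone 4, 8 h; members 3 to 5) and 1658 to 2104 (clone 4, 2 to 8 h; members 0 to 1). Differences in change had 564 to 1955 genes and 0 to 1 members for clone 2, and 168 to 1718 genes for clone 4, over 8 h; from 2 to 8 h they had 475 to 970 genes for clone 2, and 34 to 235 genes and 0 to 1 members for clone 4. Members of clone 4 against WT called were 1 to 3 at 2 h and 0 to 2 at 8 h. Values near 0 that changed sign in this way were Hoxd8 in clone 2 at 0 h (-0.058 to 0.13) and 2 h (-0.050 to 0.15), Hoxc9 (-0.19 to 0.13), Hoxd1 (-0.23 to 0.13), Hoxd8 (-0.083 to 0.16) and Hoxd9 (-0.065 to 0.12) in clone 4 at 8 h, and the Hoxc6 difference for clone 2 (-0.25 to 0.38). Depth limits Hoxd3 and Hoxd4, with 0 to 20 and 0 to 27 counts per library, and clone 2 at the later times.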
